A study of Homo sapiens with 6 samples.

Results

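The transcripts described here encode the RZZ complex (ZW10, KNTC1 and ZWILCH), its partner Spindly (SPDL1) and the dynein regulators NDE1, NDEL1 and PAFAH1B1. They are 7 of the 32985 genes in the deposited table, taken by name, and all 7 were among the 11725 genes tested, whose FPKM (fragments per kb of transcript scaled to library size) averaged 1 or more. The set was chosen by the rise of ZW10 in the siNUF2 libraries, so the members' differences between the siRNA groups are given as a description and carry no p-value here. Counts of members past a threshold in that contrast stand beside the share of all genes, and nothing is read from them.

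The study asked how the transcriptome of 8505C, an established line from an anaplastic thyroid cancer, differs when NUF2 is knocked down. All samples were of this 1 line, with the genotype labelled WT for the siCtrl and NUF2 knockdown for the siNUF2 samples, and were grown in RPMI-1640 with fetal bovine serum. Of the 6 poly(A) libraries, 3 came from cells transfected with a control siRNA (siCtrl) and 3 from cells transfected with a siRNA against NUF2 (siNUF2), each labelled 24 h, with replicate numbers 1 to 3 in both groups. The knockdown was made with 1 siRNA sequence, and nothing in the labels says whether the replicates were separate cultures, so p-values measure only the spread between these libraries.

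The libraries held 61257859 to 69755291 counts, with 6.66% to 7.87% of counts in the 10 most abundant genes and 5.46% to 7.06% in mitochondrial genes. NUF2, which couples kinetochores to microtubules as part of the NDC80 complex, was at 14.8, 14.5 and 12.2 FPKM in the siCtrl libraries and at 1.53, 2.05 and 1.56 FPKM in the siNUF2 libraries, 12.4% of the control mean. Among thyroid follicular markers, TG, SLC5A5, FOXE1 and PAX8 had mean levels under 1 FPKM in both groups and NKX2-1 was at 18.5 and 18.0 FPKM. Markers of leukocytes and endothelium had mean levels under 1 FPKM apart from CD68 (5.69 and 5.32 FPKM) and CDH5 (1.07 and 1.25 FPKM). CDH5 was at 1.87 and 2.72 FPKM in replicate 2 of siCtrl and siNUF2 and at 0.496 to 0.762 FPKM in the other 4 libraries. The leukocyte marker PTPRC was at 0.518 and 0.147 FPKM in replicate 1 of siCtrl and siNUF2 and at 0.018 FPKM or less elsewhere. CD3E and MS4A1 were above 0 FPKM only in replicate 1 of both groups. In bulk RNA, fewer cells of a kind and less RNA per cell cannot be told apart.

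The RZZ complex builds, with Spindly, the fibrous corona on the outside of kinetochores that lack microtubules. ROD (the product of KNTC1) is the large scaffold subunit, and ZWILCH and ZW10 bind to it. Farnesylated Spindly is an adaptor that brings dynein and dynactin to RZZ, and dynein later carries RZZ and the checkpoint proteins MAD1 and MAD2 away along microtubules. LIS1 (PAFAH1B1), NDE1 and NDEL1 are regulators of dynein in mitosis and in neuronal migration. ZW10 also has a role outside mitosis, in the NRZ tether at the endoplasmic reticulum with RINT1 and NBAS.

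Some short sequences are shown first, because they show where the siRNA lies in NUF2 and which members hold the words discussed here. They come from the GENCODE v44 canonical mRNAs (GRCh38) and are written 5′ to 3′ on the mRNA strand with a 7-base word in capitals. The word TATGGAA is the complement of bases 2 to 8 in the antisense strand of the siRNA against NUF2, whose sequence the study's methods give. NUF2 holds TATGGAA at 2 places in its coding sequence, and the sense strand of the siRNA lies across the exon 6 site.
NUF2 exon 3: tacaaatagtaTATGGAAttcgactggaa
NUF2 exon 6: cgtgaaacgtaTATGGAAtttctttggca

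NUF2 lies on the plus strand and its canonical mRNA has 14 exons, with the exon 6 site at chr1:163336816-163336844 and the exon 3 site at chr1:163327522-163327550. Among the 7 members, ZWILCH and PAFAH1B1 held TATGGAA once each in the 3′ UTR. The other 5 held none there, although ZW10, KNTC1 and SPDL1 held 1, 3 and 1 copies in the coding sequence. Of the 6 genes of the wider pathway called further on, DYNC1LI2, YWHAE and BUB3 held 1 copy in the 3′ UTR, PAFAH1B2 held 2, and DYNLL2 and BICD2 held 0. The sites of ZWILCH, DYNC1LI2 and YWHAE are shown as examples.
ZWILCH: aaacagcaatgTATGGAAaccctcaaagc
DYNC1LI2: attttttttctTATGGAAataagagtttc
YWHAE: gttgaaggtggTATGGAAaagcctgcatg

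These lie in the last exon of each mRNA, at chr15:66548401-66548429 on the plus strand for ZWILCH. The sites of DYNC1LI2 and YWHAE lie on the minus strand at chr16:66722504-66722532 and chr17:1344774-1344802. Of 10121 tested genes with an annotated 3′ UTR of at least 50 bases, 15.1% held TATGGAA, so its presence in 2 of 7 members is a description only. The 3′ UTRs of DYNC1LI2, YWHAE, BUB3 and PAFAH1B2 had 2829, 1172, 6632 and 3346 bases. Those of DYNLL2 and BICD2 had 6263 and 3791 bases. No share was computed for 3′ UTRs of such lengths, so nothing is read from the copies in these pathway genes either.

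The other word, TCGGAGA, is shown because the 3′ UTR of ZW10 holds it once, 388 bases after the stop codon in a 3′ UTR of 507 bases. It was taken up with earlier results of these data known. NDE1 and BICD2, which encodes another dynein adaptor, also held 1 copy in the 3′ UTR. BICD2 held 1 more in its coding sequence, and YWHAE held 1 in the 5′ UTR or at its boundary.
ZW10: ttctgagcaaaTCGGAGAtattttagggg
NDE1: tcttcttcgagTCGGAGAgctacaaggac
BICD2: tagctttagacTCGGAGAtgagtgctttg

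The ZW10 site is in exon 16 of 16 on the minus strand at chr11:113733289-113733317, and the NDE1 site is on the plus strand at chr16:15724391-15724419. The BICD2 site is on the minus strand at chr9:92712923-92712951. TCGGAGA was present in 1.97% of the same 10121 3′ UTRs, and in 0.773% of the 906 tested genes whose 3′ UTR was 0.8 to 1.2 times as long as that of ZW10. The word is shown because ZW10 holds it, so these shares do not test its presence there. NDE1 and BICD2 have 3′ UTRs of 2102 and 3791 bases. No share was computed for such lengths, so nothing is read from their copies. Both words were searched on the mRNA strand only, they do not overlap each other here, and a match is a description of letters, not a site or a cause.

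ZW10, on chromosome 11 (113733187 to 113773692, minus strand, 16 exons in the canonical mRNA), was at 5.29, 5.52 and 5.84 FPKM in siCtrl replicates 1, 2 and 3. It was at 13.8, 13.5 and 13.9 FPKM in the siNUF2 replicates. Every siNUF2 library lay above every siCtrl library, and the means were 5.55 ± 0.274 and 13.7 ± 0.239 FPKM (SD, n = 3 each). The underlying counts were 1244, 1302 and 1266 in siCtrl and 3124, 3157 and 2919 in siNUF2. The fitted log2 fold change was 1.33 with a standard error of 0.11 and a 95% interval from 1.08 to 1.58, which placed ZW10 at rank 25 of 11725 genes ordered by rise. By level, ZW10 moved from the 47.3 to the 75.0 percentile of the genes tested. The difference between same-numbered libraries was 1.39, 1.32 and 1.27 on the log2 scale. The fitted value ranged from 1.29 to 1.37 when 1 library was left out.

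KNTC1, which encodes ROD, was at 3.08, 4.20 and 2.76 FPKM in siCtrl and at 3.28, 4.54 and 3.49 FPKM in siNUF2. The groups overlapped, and replicate 2 was the highest library in both. The log2 fold change was 0.19 with a standard error of 0.19 and an interval from -0.24 to 0.63, the widest among the 7 members.

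ZWILCH was at 15.4, 16.6 and 16.0 FPKM in siCtrl and at 13.7, 14.5 and 16.2 FPKM in siNUF2. Replicates 1 and 2 of siNUF2 lay under all siCtrl libraries and replicate 3 lay among them. The log2 fold change was -0.09 with a standard error of 0.10 (interval -0.32 to 0.14). ZWILCH overlaps RPL4, a ribosomal protein gene on the opposite strand with a mean of 360 FPKM and a log2 fold change of 0.12, and the strand setting of the counting is not given in the sources used here.

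Among the 3 RZZ subunits, the fitted changes were thus 1.33 for ZW10, 0.19 for KNTC1 and -0.09 for ZWILCH. Within a library, the FPKM ratio of ZW10 to ZWILCH was 0.344, 0.332 and 0.364 in siCtrl and 1.01, 0.930 and 0.857 in siNUF2. The mean ratio was 0.347 ± 0.0161 in siCtrl and 0.933 ± 0.0774 in siNUF2 (SD, n = 3 each). The ratio of ZW10 to KNTC1 was 1.72 ± 0.402 in siCtrl and 3.73 ± 0.670 in siNUF2, also without overlap. The rise of ZW10 chose the set, so nothing is read from the separation of ratios that hold ZW10. The ratio of ZWILCH to KNTC1 overlapped between the groups, at 4.92 ± 0.935 and 4.01 ± 0.750.

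**Figure D1:**
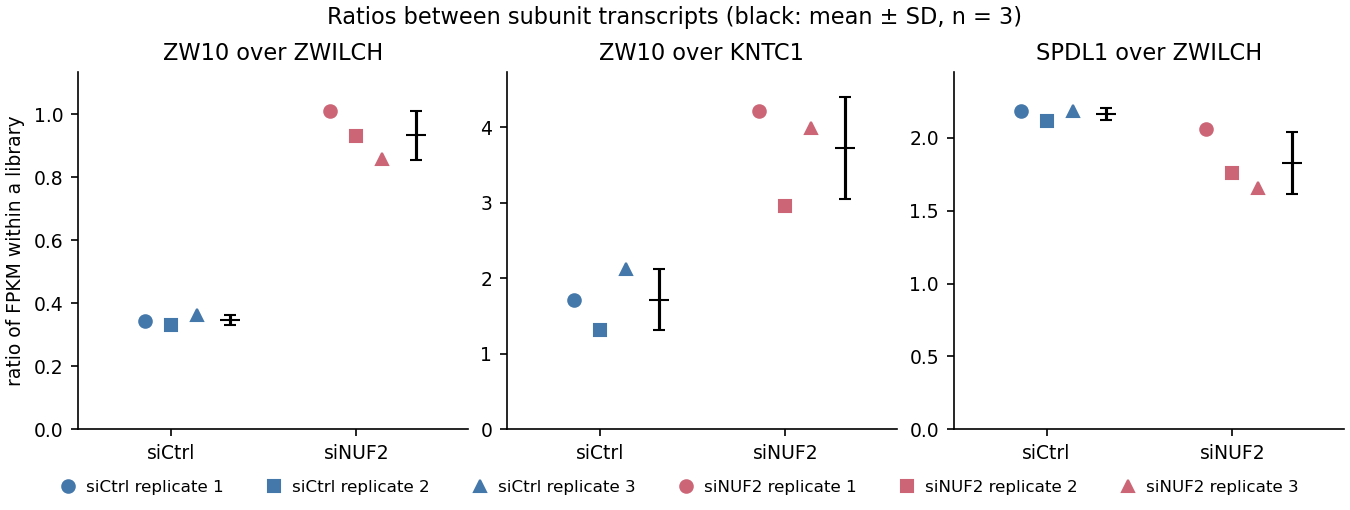
Ratios of FPKM between subunit transcripts within each library, for siCtrl (blue) and siNUF2 (red) replicates 1 to 3, with the mean ± SD in black. The ratio of ZW10 to ZWILCH was 0.332 to 0.364 in siCtrl and 0.857 to 1.01 in siNUF2, and the ratio of SPDL1 to ZWILCH was 2.16 and 1.82 on average. The rise of ZW10 chose the set, so its ratios are a description only.

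SPDL1, which encodes Spindly, had the highest FPKM of the 7 members. It was at 33.6, 35.1 and 35.0 FPKM in siCtrl and at 28.2, 25.5 and 26.8 FPKM in siNUF2. The groups did not overlap, and the siNUF2 mean was 77.6% of the siCtrl mean (34.6 ± 0.829 and 26.8 ± 1.35 FPKM, SD, n = 3 each). The log2 fold change was -0.35 with a standard error of 0.08 (interval -0.54 to -0.15). The ratio of SPDL1 to ZWILCH was 2.19, 2.11 and 2.18 in siCtrl and 2.06, 1.76 and 1.65 in siNUF2. The transcripts of SPDL1 and ZW10 thus stood on opposite sides of their control levels, each without overlap. Of all genes tested, 24.1% did not overlap between the groups in library-scaled counts. The rise of ZW10 chose the set, so nothing is read from this pair.

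**Figure D2:**
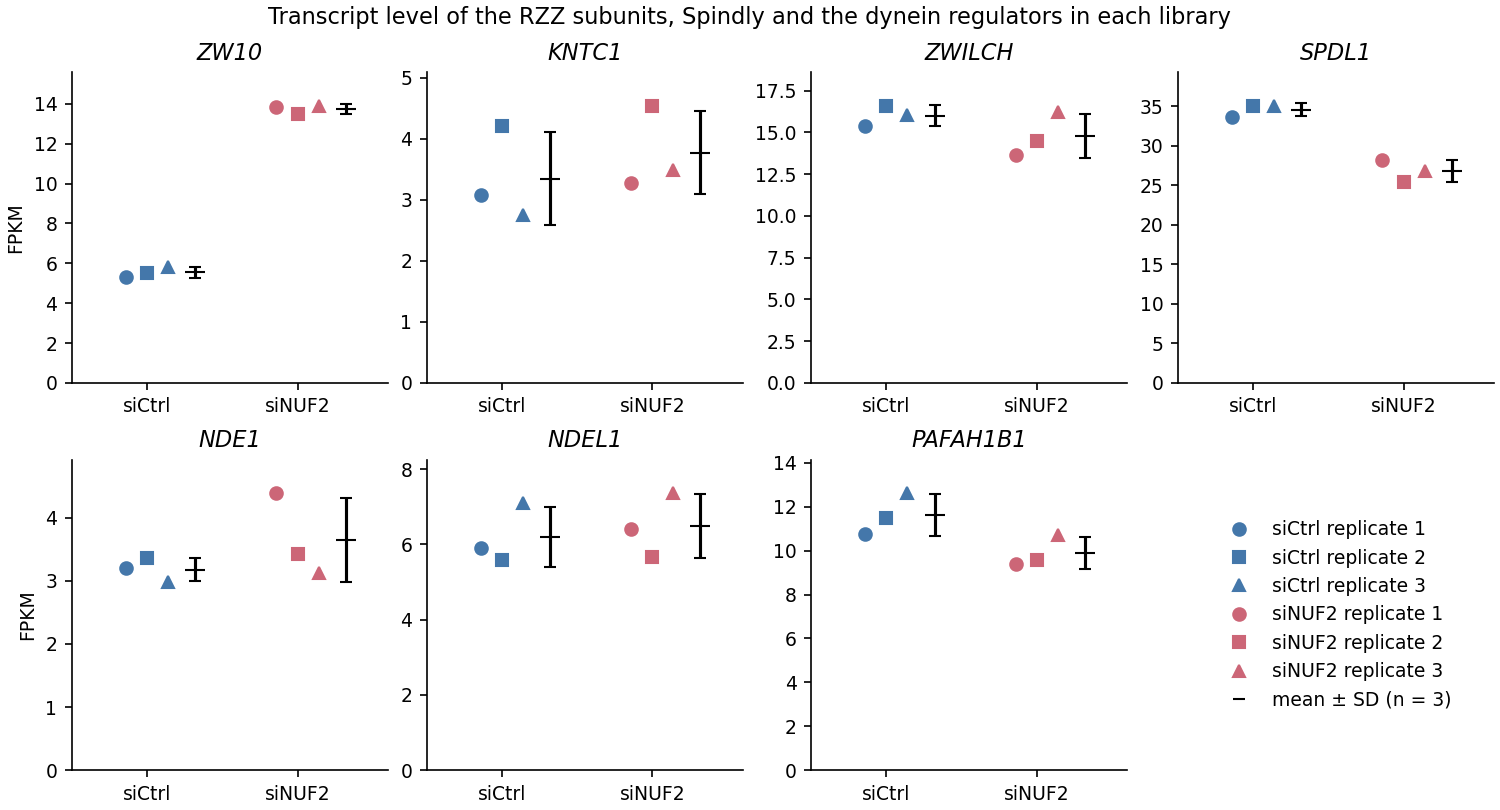
FPKM of each of the 7 members (one panel each, vertical axis from 0) in the 3 siCtrl (blue) and 3 siNUF2 (red) libraries, with replicate numbers as shapes and the mean ± SD in black. ZW10 lies between 5.29 and 5.84 FPKM in siCtrl and between 13.5 and 13.9 FPKM in siNUF2, SPDL1 is lower in every siNUF2 library, and the groups overlap for KNTC1, ZWILCH, NDE1 and NDEL1.

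Of the dynein regulators, NDE1 was at 3.20, 3.36 and 2.98 FPKM in siCtrl and at 4.39, 3.43 and 3.12 FPKM in siNUF2. Replicate 1 of siNUF2 was above all the others and the other two lay among or next to the siCtrl libraries. The log2 fold change was 0.22 with a standard error of 0.15 (interval -0.12 to 0.55), and it was 0.07 without siNUF2 replicate 1. NDE1 overlaps MYH11 on the opposite strand, a muscle myosin gene near 0 FPKM, and a locus listed as AC026401 on its own strand at a mean of 8.87 FPKM, so reads may be shared between them.

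NDEL1, the paralog of NDE1, was at 5.91, 5.60 and 7.09 FPKM in siCtrl and at 6.41, 5.68 and 7.37 FPKM in siNUF2. The groups overlapped, with replicate 3 the highest in both. The log2 fold change was 0.08 with a standard error of 0.13 (interval -0.23 to 0.39), and its sign turned to -0.02 without siNUF2 replicate 3. NDE1 and NDEL1 share sequence, and how reads matching both were counted is not given in the sources used here.

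PAFAH1B1, which encodes LIS1, was at 10.8, 11.5 and 12.6 FPKM in siCtrl and at 9.38, 9.59 and 10.7 FPKM in siNUF2. The highest siNUF2 library lay just under the lowest siCtrl library in FPKM, whereas in CPM (counts scaled to the library total) with TMM factors the same libraries were at 175.5 and 173.3 and the groups overlapped. The log2 fold change was -0.21 with a standard error of 0.10 (interval -0.45 to 0.03).

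Over the set, 1 of 7 members (ZW10) was past the adjusted threshold of 0.05 (edgeR quasi-likelihood test over all genes) in the siNUF2 comparison, against 3.99% of all genes tested (1.53% higher and 2.46% lower in siNUF2). With the replicate block, 2 of 7 (ZW10 and SPDL1) were past it, against 14.5% of all genes. The groups did not overlap in TMM-scaled CPM for the same 2 of 7, against 24.1% of all genes. As this contrast was used to choose the set, nothing is read from these counts. The median log2 fold change was 0.08 over the 7 members and 0.01 over all genes. Apart from ZW10, the 6 members ranged from -0.35 to 0.22, and the middle of all genes, between the quartiles, ran from -0.17 to 0.17.

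By mean siCtrl level in FPKM, the order was NDE1 (3.18), KNTC1 (3.34), ZW10 (5.55), NDEL1 (6.20), PAFAH1B1 (11.6), ZWILCH (16.0) and SPDL1 (34.6). The libraries of NDE1 and KNTC1 overlapped, as did those of ZW10 and NDEL1, so these neighbours did not differ beyond their spread, while the other steps did not overlap. In siNUF2, ZW10 at 13.7 FPKM stood between PAFAH1B1 at 9.90 and ZWILCH at 14.8 FPKM, and its libraries overlapped those of ZWILCH. FPKM rests on the gene length that was used. CPM divided by FPKM gave lengths from 1.18 times (ZW10) to 3.94 times (NDEL1) the canonical mRNA. On a scale of CPM per kb of canonical mRNA, the siCtrl order was KNTC1 (6.37), ZW10 (6.59), NDE1 (9.56), NDEL1 (24.6), ZWILCH (25.3), PAFAH1B1 (33.5) and SPDL1 (76.4), with overlap between KNTC1 and ZW10 and between NDEL1 and ZWILCH. SPDL1 was highest and NDEL1 in the middle on both scales, and the other 5 changed place. Differences between the siRNA groups within a gene do not depend on this length.

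The replicate numbers gave a comparison that the choice of the set did not use. It asks whether libraries with the same number resembled each other in both siRNA groups. KNTC1 lay 0.35 above its siCtrl mean and 0.30 above its siNUF2 mean in replicate 2 (log2 CPM), and under its group mean in the other 4 libraries. It differed by replicate number (edgeR quasi-likelihood F-test with the siRNA group in the fit, Benjamini-Hochberg adjusted p = 0.0456), 1 of 7 members, against 7.60% of all genes. The call was lost in some settings, with adjusted p from 0.0154 to 0.114 when 1 library was left out and 0.110 in limma, 0.297 with no filter and 0.0021 in the DESeq2 likelihood ratio test. Of 12 S-phase markers, 4 (MCM2, MCM5, MCM6 and PCNA) also differed by replicate number. MCM5, MCM6 and PCNA were highest in replicate 2 of both groups, and MCM2 in replicate 1 of both. The summed S-phase markers were highest in replicate 2 of both groups, at 436 FPKM of 356 to 436 in siCtrl and 535 FPKM of 423 to 535 in siNUF2. Of the cell type markers, CDH5, NKX2-1, KRT18, KRT19 and FN1 differed by replicate number as well (edgeR adjusted p from 0.0109 to 0.0422), and of these CDH5, KRT18 and KRT19 were highest in replicate 2 of both groups. The part of any of these markers in the KNTC1 difference was not tested.

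NDEL1 lay 0.21 and 0.19 above the group mean in replicate 3 of siCtrl and siNUF2, and PAFAH1B1 lay 0.13 and 0.12 above it. Neither passed the threshold (edgeR adjusted p = 0.0884 and 0.209). For ZW10, SPDL1, ZWILCH and NDE1 the adjusted p by replicate number ranged from 0.368 to 0.945. ZW10 and SPDL1, the members whose groups did not overlap, deviated by at most 0.08 and 0.06 from their group means in any library.

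**Figure D3:**
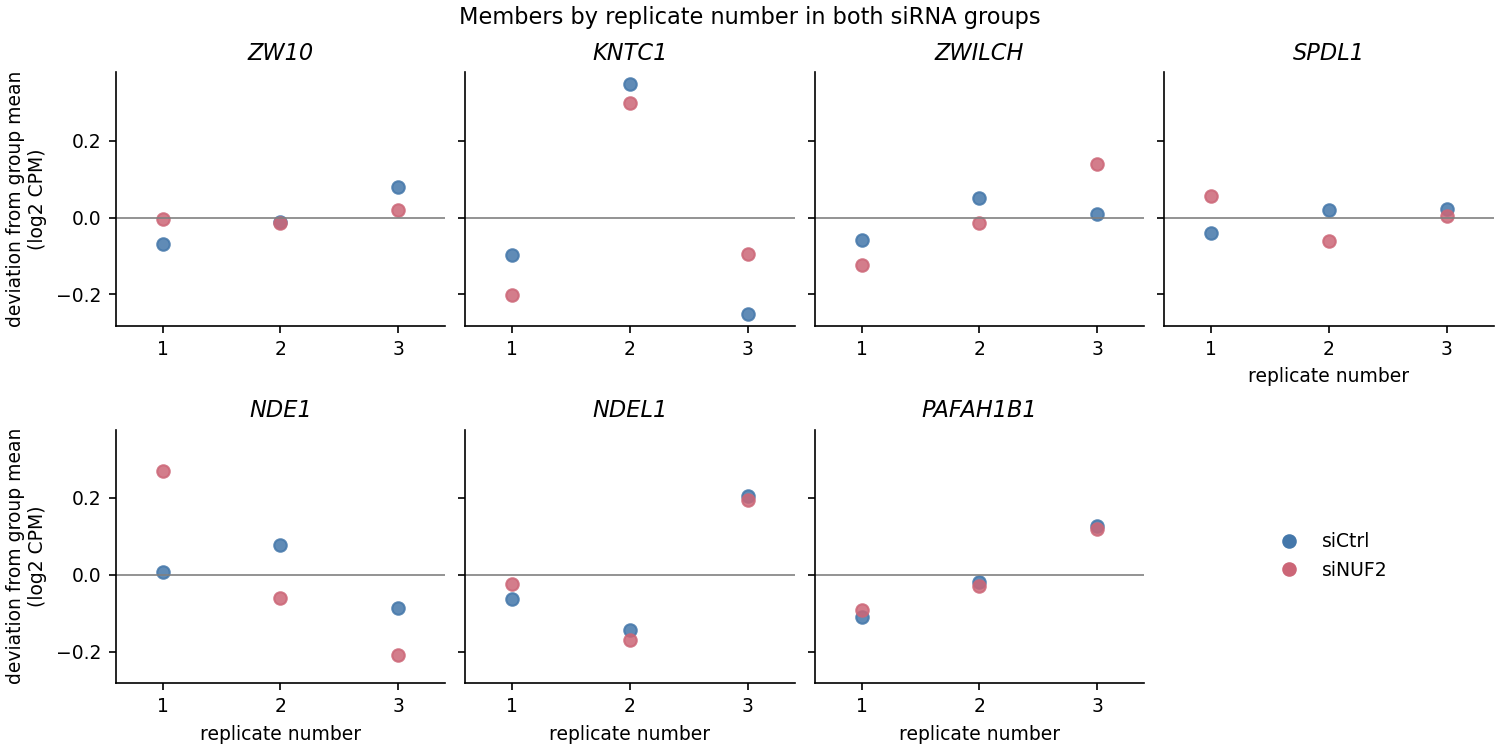
Deviation of each member from its own group mean in log2 CPM (vertical axis) against the replicate number (horizontal axis), for siCtrl (blue) and siNUF2 (red). KNTC1 is high in replicate 2 of both groups (0.35 and 0.30) and NDEL1 in replicate 3 of both (0.21 and 0.19), while the points of ZW10 stay within 0.08 of 0.

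The genes that act with the members were followed in 7 lists of 73 genes, of which 64 were tested. Past the adjusted threshold were 2 genes that rose and 4 that fell, against 3.99% of all genes, and the median log2 fold change of the 64 was -0.01. With the replicate block the count was 11 of 64, against 14.5% of all genes in that fit.

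Among 9 tested subunits of cytoplasmic dynein, the motor that RZZ and Spindly recruit, 1 fell and 1 rose. DYNC1LI2, a light intermediate chain that contacts cargo adaptors, was at 16.0 ± 0.441 FPKM in siCtrl and 6.86 ± 0.496 FPKM in siNUF2 (SD, n = 3; log2 fold change -1.20, standard error 0.09, edgeR adjusted p = 0.0012). The light chain gene DYNLL2 rose from 19.2 ± 0.632 to 27.0 ± 1.13 FPKM (log2 fold change 0.51, edgeR adjusted p = 0.0176), a call that was lost in 5 of the 6 fits without 1 library, at log2 fold changes of 0.48 to 0.53, and in the F-test on log2(FPKM + 1) (adjusted p = 0.0515, log2 fold change 0.47). The heavy chain gene DYNC1H1 had a log2 fold change of -0.16 (edgeR adjusted p = 0.354) and the other light intermediate chain gene, DYNC1LI1, of -0.24 (edgeR adjusted p = 0.351). The median over the 9 was -0.16.

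Of 12 tested dynactin genes, 0 passed the threshold in edgeR, with 3 at an unadjusted p under 0.05. DESeq2 and limma called 1 each and the replicate block 2. CAPZA1, of the capping protein at the end of the dynactin filament, was at -0.41 (edgeR adjusted p = 0.0532, 0.0119 with the block). DCTN6 was at 0.36 (edgeR adjusted p = 0.120, 0.0464 with the block). The median over the 12 was 0.01.

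Among 11 tested genes for other dynein adaptors, BICD2 alone passed the threshold. BICD2 links dynein to Golgi vesicles and, in late G2, to nuclear pores. It was at 4.31 ± 0.274 FPKM in siCtrl and 12.1 ± 0.697 FPKM in siNUF2 (SD, n = 3), and the log2 fold change was 1.51 with a standard error of 0.10 (edgeR adjusted p = 0.000844). The lowest of the list was HOOK2 at -0.34 (edgeR adjusted p = 0.536).

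Of 18 genes for kinetochore receptors of RZZ and for its checkpoint cargo, all tested, 1 fell. BUB3, a checkpoint protein that binds phosphorylated KNL1, was at 20.4 ± 1.21 FPKM in siCtrl and 12.9 ± 0.701 FPKM in siNUF2 (SD, n = 3; log2 fold change -0.64, edgeR adjusted p = 0.0114). Without siCtrl replicate 1 or without siNUF2 replicate 1 it was no longer past the threshold, at log2 fold changes of -0.59 and -0.61, nor was it in the F-test on log2(FPKM + 1) (adjusted p = 0.0567, log2 fold change -0.62). ZWINT, a KNL1-binding protein linked to the recruitment of RZZ, was at 0.13 and KNL1 at -0.21. MAD1L1 and MAD2L1, the checkpoint proteins that RZZ helps to bring to kinetochores, were at 0.23 and -0.20 (edgeR adjusted p = 0.394 and 0.360). The highest was CENPF, which binds NDE1 and NDEL1 at kinetochores, at 0.30 (edgeR adjusted p = 0.149, 0.025 with the replicate block).

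The partners of ZW10 outside mitosis gave 0 calls among 6 genes in edgeR, with 1 at an unadjusted p under 0.05, and 0 with the block, DESeq2 or limma. In the NRZ tether, RINT1 was at 0.10 and NBAS at -0.31 (edgeR adjusted p = 0.779 and 0.246), beside 1.33 for ZW10. The tether's SNAREs STX18, USE1, SEC22B and BNIP1 lay between -0.03 and 0.03.

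Among 6 tested partners of NDE1, NDEL1 and LIS1, 2 fell. YWHAE, a phosphoserine-binding adaptor that protects phosphorylated NDEL1, fell from 185 ± 9.95 to 84.6 ± 5.34 FPKM (SD, n = 3; log2 fold change -1.11, edgeR adjusted p = 0.00186). PAFAH1B2, a catalytic subunit of the acetylhydrolase that LIS1 also belongs to, was at 13.3 ± 2.17 and 7.44 ± 1.61 FPKM (log2 fold change -0.82, edgeR adjusted p = 0.0469). That call was lost in 9 of 14 alternatives, among them 5 of the 6 fits without 1 library. NUDC, a cochaperone that stabilises LIS1, was the highest at 0.24 (edgeR adjusted p = 0.241, 0.039 with the replicate block). The farnesyltransferase that modifies Spindly has the subunit genes FNTA and FNTB, which were at 0.00 and -0.09 (edgeR adjusted p = 0.995 and 0.759).

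**Figure D4:**
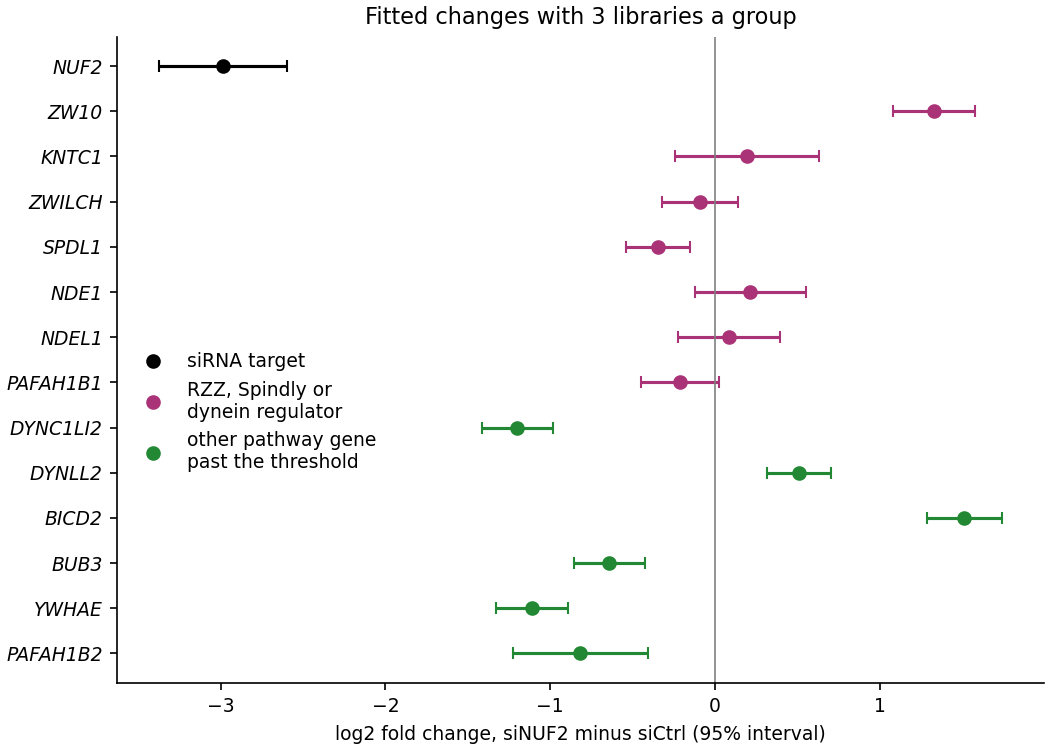
Fitted log2 fold change, siNUF2 minus siCtrl, with its 95% interval (horizontal axis) for NUF2 (black), the 7 members (purple) and the 6 other pathway genes past the adjusted threshold (green). ZW10 at 1.33 and BICD2 at 1.51 are the highest, and DYNC1LI2 at -1.20 and YWHAE at -1.11 are the lowest after NUF2. The intervals of the members describe the spread between libraries and test nothing, as this contrast chose the set.

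The members are cell-cycle genes in part, so the levels of cycle markers were set beside them. Of 12 G2/M markers, 0 passed the threshold in edgeR in the siNUF2 comparison, with 1, BIRC5, at an unadjusted p under 0.05. DESeq2 and the replicate block called 1 and limma 0. Their summed level was 607 to 626 FPKM in siCtrl and 601 to 673 FPKM in siNUF2. Of 12 S-phase markers, 0 passed in edgeR, with 5 at an unadjusted p under 0.05, 1 in DESeq2, 0 in limma and 5 with the block, and with a median log2 fold change of 0.28. The summed S-phase level was 356 to 436 FPKM in siCtrl and 423 to 535 FPKM in siNUF2, so the groups overlapped. Within same-numbered pairs it was higher in siNUF2 in all 3. The groups of ZW10 and SPDL1 did not overlap, which fixes their direction in such pairs, so nothing is read from it. The part of the cell cycle in the members' values was not tested.

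Over the 6 libraries, the tested genes whose log2 CPM were most like those of ZW10 were OGFR, BICD2, GLE1, CSK and CENPA, with Pearson correlations of 0.995 to 0.999. These points share the siRNA groups, so the values follow the difference between them. The 5 genes had log2 fold changes from 0.70 (CSK) to 1.51 (BICD2), and they lie on other chromosomes than ZW10. Of the other members, the correlation with ZW10 was highest for NDE1 (0.544) and lowest for SPDL1 (-0.966). The tested neighbour of ZW10 nearest to it, USP28, 24182 bases away on the same strand, had a log2 fold change of -0.03.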

How the data were processed

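The deposited table holds gene counts and FPKM for each of the 6 libraries. Per the labels and the study's methods, the authors used fastp for trimming, HISAT2 for alignment (GRCh38) and StringTie for FPKM. The counting tool, its strand setting, the versions and the annotation are not given in the sources used here. From the counts, edgeR 4.0.16 (TMM, quasi-likelihood test, Benjamini-Hochberg, threshold 0.05) was fitted in R 4.3.3 to 11725 genes averaging 1 FPKM or more. Deviations of same-numbered libraries correlated (r = 0.313 to 0.431, against -0.276 to -0.138 for different numbers), so an alternative used the replicate number as a block. Deviations from the mean cancel within a group, so the negative values follow from the positive ones and are no separate comparison. The labels do not say what a number shares. Replicates differed beyond counting noise (chi-square per degree of freedom 54.7 to 77.7). Other alternatives were DESeq2 1.42.0, limma 3.58.1 on log2(FPKM + 1) and log2(FPKM + 0.1), an F-test, other size factors and filters, and leaving out each library. The edgeR steps were tried on simulated counts. Those with planted changes had a dispersion under the common dispersion of these data, so they do not show the power here. Sequences came from GENCODE v44 (GRCh38), and all 7 members and NUF2 overlapped their annotated positions at least in part. The deposited span of SPDL1 ends at 169596178, before the end of its canonical mRNA at 169604778. That of NUF2 starts at 163266576, before the canonical start at 163321954. Some items are not reported here. CPM per kb of mRNA was added after seeing the data. Named by rule were the members, NUF2, every list gene past the threshold, the highest and lowest of each list, and the 5 genes most like ZW10, and other list genes were named for their role. The members, lists and words were chosen with earlier results of these data known.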

Additional observations from a re-analysis of the deposited data

How the results depend on the processing

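For the siNUF2 comparison, 468 genes passed the adjusted threshold in edgeR without a block. The count was 1705 with the replicate block, 972 with DESeq2, 188 with no filter and 78 with the F-test on log2(FPKM + 1), and 124 to 251 when 1 library was left out, in fits with fewer samples. By replicate number 891 genes passed, 2128 in the DESeq2 likelihood ratio test, 0 with no filter (edgeR, with 3676 genes at an unadjusted p under 0.05) and 606 to 1288 without 1 library. Called members numbered 1, and 2 with the replicate block, with DESeq2 and with a mean FPKM of at least 5, where SPDL1 was added each time. Called genes of the 7 pathway lists numbered 6, with 11 under the replicate block, 3 in the F-test and 3 to 5 without 1 library. Nothing is read from the members' calls, as this contrast chose the set. Over the 14 alternatives the log2 fold change of ZW10, whose rise was used to choose the set, ran from 1.17 to 1.37 and that of SPDL1 from -0.38 to -0.32. NDEL1 ran from -0.018 (without siNUF2 replicate 3) to 0.19 when 1 library was left out. FNTA, at -0.0034, turned to 0.011 with the replicate block and 0.00018 with no filter, and ran from -0.084 to 0.16 (without siCtrl replicate 2) when 1 library was left out. The block changed no other call among the genes named here than those of SPDL1, CAPZA1, DCTN6, CENPF, NUDC, BUB1B, BIRC5 and S-phase markers. The causes were not tested.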
